A study of Mus musculus with 2 samples.

Results

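Genes that handle oxidants, metals and iron were followed in fibroblasts sorted from mouse lung after saline or bleomycin. The set held antioxidant enzymes, targets of the transcription factor Nrf2, metallothioneins, ferritins, NADPH oxidase genes and aldehyde oxidases. It was defined by 43 gene symbols, of which 41 matched a row of the 16040 genes in the count table. Mt1 and Prdx6 matched no row and were not analysed here. All 41 genes had at least 10 counts over both libraries, the minimum for testing, and none was at 0 in either library.

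Mice of the Col1a2-EGFP strain were used, in which the promoter of Col1a2, a type 1 collagen gene, drives a green fluorescent reporter. Saline, or the DNA-damaging drug bleomycin, was put into the trachea, and lungs were taken at day 14. Dissociated cells that were negative for lineage markers and positive for the reporter were sorted, so the profile covers cells in which the collagen promoter was active. Each of the saline and bleomycin groups was 1 library of fibroblasts from 3 mice, made by serial analysis of gene expression, in which a short tag from the 3′ part of each transcript is sequenced and counted. The sources used here do not give the lineage markers, the bleomycin dose or the age of the mice. The libraries held 1080798 and 1099840 counts. Of 9369 genes tested, 16.6% were called, with 8.08% higher and 8.52% lower in the bleomycin library. A call needed an adjusted p under 0.05 from an exact binomial test on the reads and a ratio of at least 2. With 1 library per group the differences had no replicate check, and the test compares these libraries, not the conditions. Markers of the sorted cells fitted their label in part. Col1a1 had 2714 saline and 7925 bleomycin counts, Col1a2 had 1636 and 5613, and the growth factor receptor gene Pdgfra had 509 and 323. Of the 9 genes of the fibroblast list, 3 were called higher and 2 lower. Their median log2 ratio was −0.04 and their summed ratio 1.49 (1.47 to 1.53). The leukocyte gene Ptprc had 0 and 1 counts and the epithelial gene Epcam 1 and 0, while the endothelial gene Pecam1 had 53 and 3, the pericyte gene Cspg4 31 and 49, and the smooth muscle gene Myh11 237 and 106. Of the pericyte list, 2 of 7 tested genes were called lower and 0 higher, with a summed ratio of 0.639 (0.518 to 0.787). Of the smooth muscle list, 3 of 7 were called lower and 1 higher, Des (169 and 571 counts, chosen after its values were seen), with a summed ratio of 1.19 (1.09 to 1.31).

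Cells dispose of oxidants in stages. Superoxide dismutases turn superoxide into hydrogen peroxide, which catalase splits directly and which glutathione peroxidases and peroxiredoxins reduce with electrons from glutathione and thioredoxin. The repressor Keap1 holds the transcription factor Nrf2, encoded by Nfe2l2, at a low level, and oxidants or electrophiles release it to drive genes of glutathione synthesis, quinone reduction and haem breakdown. Metallothioneins bind zinc and copper through their many cysteines, and ferritin stores iron in a form that cannot react with peroxide. In the lung, extracellular superoxide dismutase lies in the matrix, and NADPH oxidase 4 makes hydrogen peroxide in fibroblasts.

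The tags that stand for these genes show which counts can be tied to a single gene. The tag next to the last CATG of the deposited row's transcript, 27 bases long as the tagging kit is generally known to give, was read from the GENCODE M21 transcripts (GRCm38) for 40 of the 41 genes. In 34 of them it lay in the 3′ untranslated region and in 6 in the coding sequence. The tags below belong to the most abundant genes that were called, to the neighbouring genes Aox1 and Aox3, and to Gpx4, whose tag is not unique. Capitals mark the CATG cutting site.
Mt2: CATGtaactgacaataaaagccgttga
Sod3: CATGcaactagaggggattcaacaaag
Prdx5: CATGgtgatagacaacggcatagtgaa
Aox1: CATGaagccgactcggaagattctctt
Aox3: CATGtttaattcaatatattaaacgga
Gpx4: CATGaaggtctgcctgaaaaccagcct
The Gpx4 tag also stood in a transcript of 1 other gene (Gpx4-ps2), and the Sod2 tag in 1 (Gm26909). Counts of both genes are therefore uncertain, as are those of Ftl1, which has near-identical copies in the genome. The tags of the other 37 genes occurred at no CATG of another gene's transcript, although the sources used here do not say which tags the authors matched or whether they used strand.

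In the bleomycin library, the metallothionein gene Mt2, the peroxiredoxin gene Prdx5 and the glutathione genes Gsr and Gss were higher. Extracellular superoxide dismutase (Sod3), catalase (Cat), Nfe2l2, Txnip, Msra, Sepp1, Cyba, Aox1 and Aox3 were lower. Of the 41 genes, 4 were called higher (9.76%) and 9 lower (22.0%), beside 8.08% and 8.52% of all genes tested. These genes were more abundant than most, with a median of 215 counts over both libraries against 52 for all genes tested, and a given ratio is called more readily at higher counts. With a minimum of 50 counts, 9 of the 33 genes that remained were called (27.3%), beside 18.2% of all genes tested. The median log2 ratio was 0.02 for the 41 genes and 0.02 for all genes tested (−0.02 and −0.03 with total counts). Of the 28 genes not called, 12 passed the exact binomial test with a ratio under 2-fold. The share of all genes tested that did so is not given here. At an unadjusted level, 15 of the 41 genes had intervals wholly above 1 and 13 wholly below. These compare with 17.2% and 18.1% of all genes tested, and higher counts narrow such intervals. Of all 41 genes, 22 had an exact 95% interval of the ratio that lay wholly between 0.5 and 2. The share was 25.4% over all genes tested, most of which had fewer counts. All 22 were among the 28 not called. The intervals of Txnrd2, Glrx, Gclc, Gclm, Keap1 and Nqo1 reached past 2-fold and so do not exclude a difference of that size between the libraries. In sorted cells measured in bulk, fewer cells of a type and less RNA per cell cannot be told apart.

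**Figure D1:**
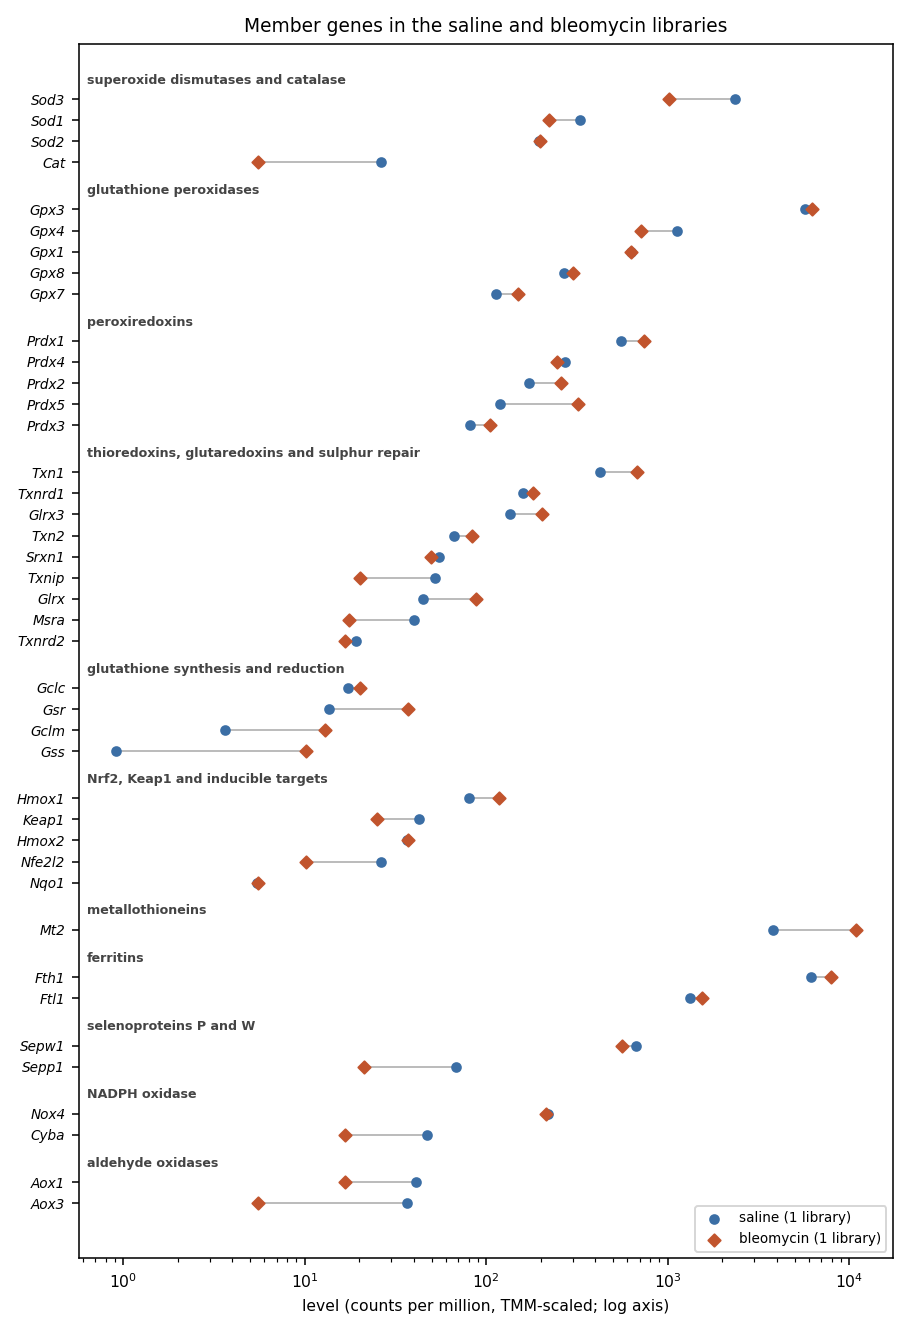
Level of each gene in the saline (circles) and bleomycin (diamonds) library, in TMM-scaled CPM (counts scaled to library size) on a log axis, grouped by role. Each point is 1 library. In the bleomycin library Mt2 has the highest of these levels and Cat, Nqo1 and Aox3 the lowest.

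Summed over the 41 genes, counts made up 2.60% of the saline library (exact 95% interval 2.57 to 2.63) and 3.35% of the bleomycin library (3.31 to 3.38). The intervals cover counting error only. Mt2, Fth1 and Gpx3 held 61.4% of these counts in saline and 73.8% in bleomycin. Leaving out Mt2 took the ratio of the sums from 1.33 (1.31 to 1.35) to 1.06 (1.04 to 1.08). Leaving out all 3 genes turned it to 0.901 (0.877 to 0.926). The greater total in the bleomycin library was therefore carried by these abundant genes, and the sum of the other 38 was lower. That sum went from 10818 to 9642 counts, of which Sod3 alone went from 2581 to 1103. Of the 38 genes, 20 had ratios above 1 and 18 below. The 20 include Hmox2 (40 and 40 counts), Nqo1 (6 and 6) and Sod2 (213 and 214), whose side of 1 depends on the scaling. Intervals lay wholly above 1 for 12 and wholly below for 13, beside 17.2% and 18.1% of all genes tested. The lower sum therefore does not stand for each of the 38.

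Mt2 encodes metallothionein 2, a cytosolic protein that binds zinc and copper. It was counted 4165 times in saline and 11843 times in bleomycin, 0.385% and 1.08% of each library. The ratio was 2.88 (2.78 to 2.98). By abundance it stood at rank 24 among all genes after saline and rank 4 after bleomycin. Its share of the counts of the 41 genes went from 14.8% (14.4 to 15.3) to 32.2% (31.7 to 32.6). In the RefSeq gene order Mt1 is the next protein-coding gene to Mt2, with no other between them. Immediate early and dissociation-induced genes, some of which respond to tissue handling, had 7 of 14 called lower and 0 higher. They summed to 34620 CPM (counts scaled to library size) in saline and 17452 CPM in bleomycin, and their part in the result was not tested.

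The stretch before the Mt2 start site is shown because metallothionein genes are known for metal response elements, the sites of the zinc-sensing factor MTF1. It spans chr8:94172368-94172617 of GRCm38.p6, plus strand, from the RefSeq promoter table. Capitals mark matches to the core TGCACNC or TGCGCNC on either strand.
Mt2: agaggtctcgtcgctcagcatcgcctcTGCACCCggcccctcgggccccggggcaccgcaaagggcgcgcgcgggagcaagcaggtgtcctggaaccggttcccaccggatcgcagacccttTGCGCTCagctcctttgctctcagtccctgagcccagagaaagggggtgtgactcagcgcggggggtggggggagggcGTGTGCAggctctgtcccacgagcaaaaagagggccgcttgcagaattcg
Mt2 had 3 such matches in these 250 bases and 4 in the 300 bases that run to 50 past the start. At least 1 match in 300 bases was found for 28.2% of 27025 genes and at least 4 for 0.588%. Among the 36 genes of the set with an entry, 11 had a match (30.6%). The core of the antioxidant response element, TGACNNNGC, to which Nrf2 binds, was found on either strand for 7 of the 36 (19.4%) and for 14.0% of all genes. The 7 were Mt2, Gclm, Nfe2l2, Prdx1, Sod1, Srxn1 and Txnrd1. In Mt2 this match did not overlap those in capitals, whereas in Gclm it overlapped 1 of them. A match is a description of letters and not evidence of binding.

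The ferritin genes encode the heavy chain, which oxidises iron, and the light chain, which helps to lay it down as mineral. Fth1 had 6789 saline and 8571 bleomycin counts, a ratio of 1.28 (1.24 to 1.32). Ftl1, whose counts are uncertain because of its copies, had 1457 and 1679 counts, a ratio of 1.17 (1.09 to 1.25). Both passed the exact binomial test (adjusted p = 1.98e-49 and 0.000171) and neither reached the required 2-fold. There were 4.66 heavy-chain counts per light-chain count (4.40 to 4.93) in saline and 5.10 (4.84 to 5.38) in bleomycin. These intervals overlap, which is no test of a difference, and none was run.

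The 3 superoxide dismutases, each of which works in a different place, differed in their ratios. Sod3, which is secreted and binds the matrix, fell from 2581 to 1103 counts, 2.31-fold lower (2.16 to 2.49; exact binomial test, adjusted p = 1.16e-128). Sod1, the cytosolic copper and zinc enzyme, had 360 and 239 counts, for a ratio of 0.671 (0.568 to 0.793). Sod1 passed the exact binomial test (adjusted p = 1.76e-05) but not the 2-fold limit. Sod2, the mitochondrial manganese enzyme, had 213 and 214 counts, for a ratio of 1.02 (0.837 to 1.23). Sod3 was the most abundant of the 3 in both libraries, and its share of their counts was 81.8% (80.4 to 83.2) in saline and 70.9% (68.6 to 73.1) in bleomycin. The share of Sod2 was 6.75% (5.90 to 7.69) and 13.8% (12.1 to 15.6). Cat, the peroxisomal enzyme that splits hydrogen peroxide, had 29 and 6 counts, 4.78-fold lower (1.95 to 14.1). Summed with Cat, the class had 0.496 of its saline level in the bleomycin library (0.467 to 0.527).

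**Figure D2:**
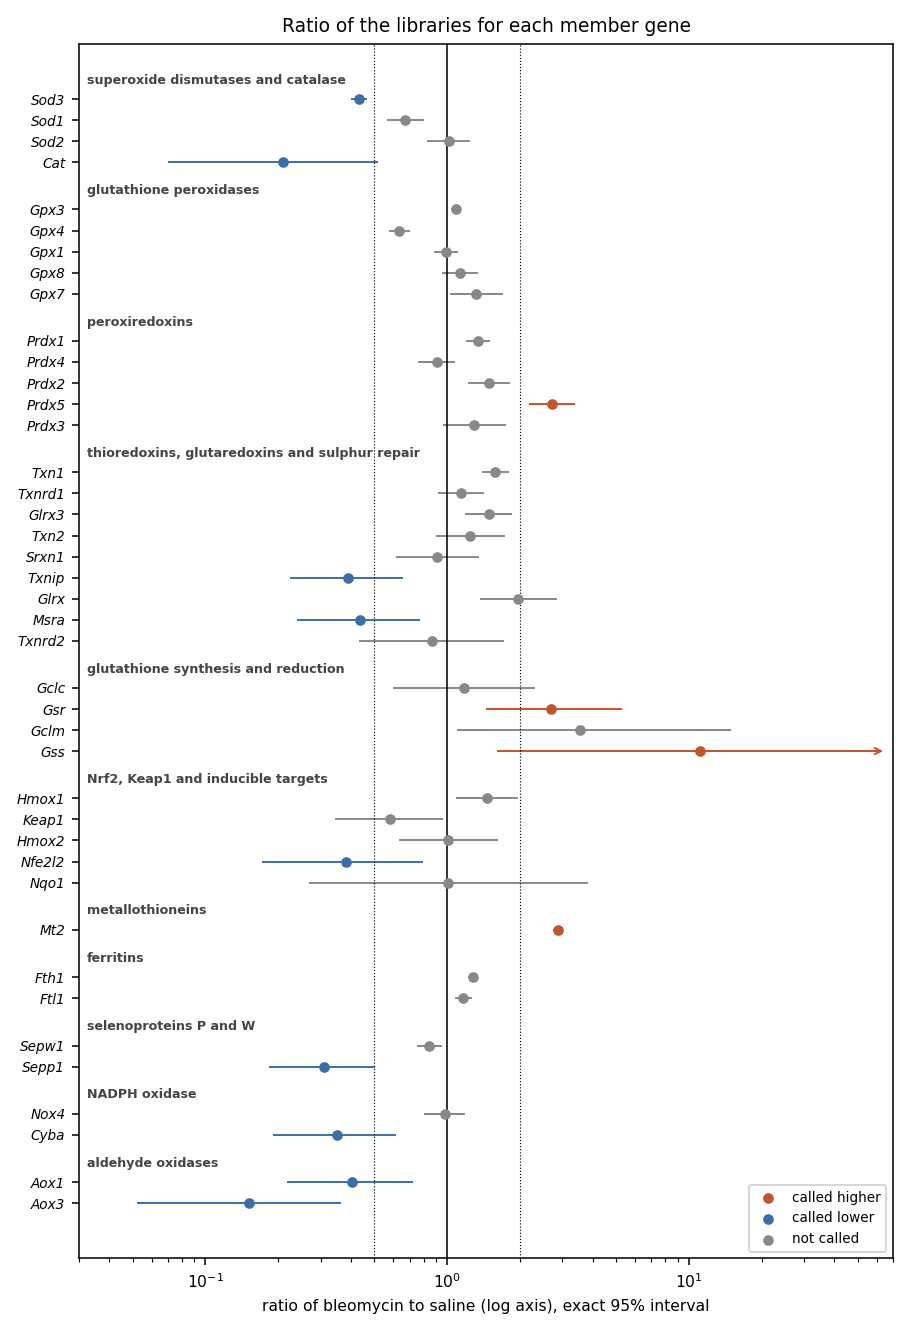
Ratio of the bleomycin to the saline library for each gene (log axis), with its exact 95% interval of counting error as a line, grouped by role. Genes called higher and lower are coloured, dotted lines mark ratios of 0.5 and 2, and the arrow at Gss marks an interval that runs beyond the axis. All of the cytosolic, mitochondrial and secreted superoxide dismutases have narrow intervals, and Sod3 alone among them lies past the dotted line.

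Glutathione peroxidases, a family named for reducing peroxides with glutathione, had no call. Gpx3, the secreted plasma form, was the most abundant, with 6282 and 6766 counts, for a ratio of 1.09 (1.05 to 1.13). By abundance it stood at rank 13 after saline and rank 14 after bleomycin. Gpx4, which reduces lipid peroxides in membranes, had 1229 and 772 counts, a ratio of 0.635 (0.580 to 0.696), with the tag shared with a pseudogene as above. Gpx4 passed the exact binomial test (adjusted p = 6.43e-22) but not the 2-fold limit. The cytosolic Gpx1 had 692 and 677 counts, for a ratio of 0.989 (0.889 to 1.10). The endoplasmic reticulum forms Gpx7, at 124 and 162 counts, and Gpx8, at 294 and 328, had ratios of 1.32 (1.04 to 1.68) and 1.13 (0.961 to 1.33). The class as a whole had a ratio of 1.02 (0.991 to 1.05). Gpx3 took 72.9% of its counts (71.9 to 73.8) in saline and 77.7% (76.8 to 78.6) in bleomycin, while Gpx4 took 14.3% (13.5 to 15.0) and 8.87% (8.28 to 9.49).

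Peroxiredoxins reduce peroxides with electrons from thioredoxin. Prdx5, found in mitochondria, peroxisomes and cytosol, rose from 130 to 348 counts, 2.71-fold higher (2.21 to 3.34; exact binomial test, adjusted p = 4.67e-23). The cytosolic Prdx1 had 608 and 807 counts, a ratio of 1.34 (1.21 to 1.49), and Prdx2 had 189 and 279, a ratio of 1.49 (1.24 to 1.81). The mitochondrial Prdx3 had 89 and 114 counts, for a ratio of 1.30 (0.973 to 1.73). Prdx4, of the endoplasmic reticulum, had 298 and 267 counts, for a ratio of 0.906 (0.765 to 1.07). Prdx5 thus made up 9.89% of peroxiredoxin counts (8.33 to 11.6) in saline and 19.2% (17.4 to 21.1) in bleomycin. The summed ratio of the class was 1.40 (1.30 to 1.5). A row for LOC677654, described as similar to peroxiredoxin 6 and chosen after its values were seen, had 427 and 577 counts, for a ratio of 1.37 (1.20 to 1.55), and it was not counted as Prdx6.

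Thioredoxin and glutaredoxin genes, which reduce disulphides, included no call in the higher direction. Txn1, the cytosolic thioredoxin, had 466 and 730 counts, for a ratio of 1.58 (1.41 to 1.78). Glrx, the cytosolic glutaredoxin, had 49 and 95 counts, for a ratio of 1.96 (1.37 to 2.83), just under the limit. Glrx3, which carries iron-sulphur clusters, had 149 and 219 counts, for a ratio of 1.49 (1.20 to 1.84). The exact binomial test was passed by all 3 (adjusted p = 1.13e-13, 0.000829 and 0.00120). The mitochondrial thioredoxin Txn2 had 73 and 90 counts, and the reductases Txnrd1 and Txnrd2 had 174 and 196, and 21 and 18. Their ratios were 1.25 (0.905 to 1.72), 1.14 (0.924 to 1.41) and 0.867 (0.435 to 1.71). Srxn1, sulfiredoxin, which restores overoxidised peroxiredoxin, had 60 and 54 counts, for a ratio of 0.910 (0.618 to 1.34). In contrast, Txnip, which binds and inhibits thioredoxin, fell, with 57 and 22 counts, 2.56-fold lower (1.54 to 4.40). Msra, which repairs oxidised methionine, also fell, with 44 and 19 counts, 2.29-fold lower (1.31 to 4.15).

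Glutathione synthesis and reduction genes had few counts, and 2 of the 4 were called higher. Gsr, glutathione reductase, had 15 and 40 counts, 2.70-fold higher (1.46 to 5.26; exact binomial test, adjusted p = 0.00387). Gss, which adds glycine in the last step of synthesis, had 1 and 11 counts. Its ratio of 11.1 (1.62 to 479) rests on that single saline count, so its size is not determined. Of the subunits of the rate-limiting ligase, the modifier gene Gclm had 4 and 14 counts, a ratio of 3.54 (1.11 to 14.8) with an adjusted p of 0.0633 in the exact binomial test. The catalytic gene Gclc had 19 and 22 counts, for a ratio of 1.17 (0.605 to 2.29). Summed, the 4 genes had 39 and 87 counts, a ratio of 2.26 (1.53 to 3.38).

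Nfe2l2 itself was lower, from 29 to 11 counts, 2.61-fold (1.26 to 5.78; exact binomial test, adjusted p = 0.0268). Keap1 had 47 and 27 counts, for a ratio of 0.581 (0.348 to 0.952), with an adjusted p of 0.0841 by the exact binomial test. Transcript levels of both do not measure the activity of Nrf2, which is set mainly through protein stability. Among well-known targets, Hmox1, the inducible enzyme of haem breakdown, had 88 and 127 counts, for a ratio of 1.46 (1.10 to 1.94). Hmox2, its constitutive relative, had 40 and 40 counts, for a ratio of 1.01 (0.636 to 1.61). Nqo1, quinone reductase, had 6 counts in each library and a ratio of 1.01 (0.270 to 3.78), too few to exclude a change of 2-fold either way. Summed, the class stood at a ratio of 1.02 (0.835 to 1.24).

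Selenoproteins carry selenocysteine, and 7 of the 41 genes encode one. Sepp1, selenoprotein P, a secreted selenium carrier, had 75 and 23 counts, 3.22-fold lower (2.0 to 5.39; exact binomial test, adjusted p = 1.74e-06). Sepw1, the small cytosolic selenoprotein W, had 732 and 610 counts, for a ratio of 0.843 (0.756 to 0.940). With Gpx1, Gpx3, Gpx4, Txnrd1 and Txnrd2 the selenoprotein genes summed to a ratio of 0.996 (0.967 to 1.02), against 1.49 (1.46 to 1.52) for the other 34. The latter sum holds Mt2 and Fth1. The selenoprotein sum is mostly Gpx3, with 6282 of 9205 saline and 6766 of 9062 bleomycin counts. Of the 7 genes, 5 had ratios below 1 and 2 above. Among the 3 secreted proteins, Sod3 and Sepp1 were lower while Gpx3 differed by less than 1.5-fold, and their summed ratio was 0.893 (0.866 to 0.920).

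NADPH oxidase 4 makes hydrogen peroxide together with the membrane subunit p22phox, encoded by Cyba. Nox4 had 239 and 231 counts, for a ratio of 0.977 (0.812 to 1.18). Cyba had 52 and 18 counts, 2.86-fold lower (1.64 to 5.19; exact binomial test, adjusted p = 0.000475). Cyba is also expressed in phagocytes, whose 10 matched marker genes summed to 6 counts in saline and 10 in bleomycin, with Ptprc at 0 and 1. The gene is known in endothelium as well, and 15 endothelial marker genes summed to 604 CPM in saline and 48.9 CPM in bleomycin, with 13 of 13 tested called lower. Of those 15, 14 had a count in saline and 12 in bleomycin. Alveolar type 2 markers summed to 202 and 18.4 CPM, with Epcam at 1 and 0 counts. The part of these cells in Cyba and in the other genes called lower was not tested.

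The aldehyde oxidases are molybdenum enzymes that oxidise aldehydes and release superoxide and hydrogen peroxide. Aox1 and Aox3 are direct neighbours on chromosome 1 in the RefSeq gene order, and both were lower. Aox1 had 45 and 18 counts, 2.47-fold lower (1.40 to 4.54). Aox3 had 40 and 6 counts, 6.59-fold lower (2.78 to 19.0; exact binomial test, adjusted p = 3.78e-06). Their tags, printed above, differ after the CATG, so these tags tell the genes apart. Their promoters of 300 bases held neither of the motifs searched.

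**Figure D3:**
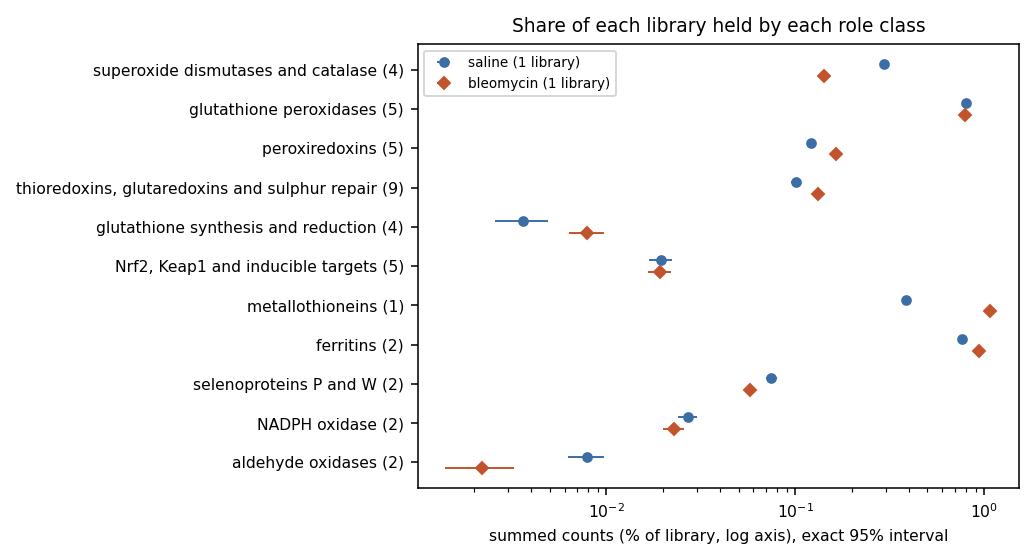
Summed counts of each role class as a percentage of the saline (circles) and bleomycin (diamonds) library on a log axis, with exact 95% intervals of counting error and the number of genes in brackets. Metallothionein, which is Mt2 alone, moved up from 0.385% to 1.08%, and superoxide dismutases with catalase moved down from 0.295% to 0.142%.

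Other genes of these pathways were read from 8 lists with 140 genes, of which 129 matched a row and 100 were tested. In all, 12 were called higher and 12 lower, 24.0% of those tested beside 16.6% of all genes, and their median log2 ratio was −0.0046, or 0.02 with upper quartile factors. The 12 higher calls fell on 5 iron, 4 zinc and copper, 2 Nrf2 pathway and 1 selenium or thiol genes. The 12 lower calls fell on 5 aldehyde, 2 glutathione turnover and 2 Nrf2 pathway genes, with 1 each among iron, selenium or thiol, and oxidant-producing genes.

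Iron uptake, export and haem genes had 5 of 18 called higher and 1 lower, with a median log2 ratio of 0.26, which was 0.08 over the 11 genes with at least 50 counts. Slc39a14, a transporter that takes up zinc and iron not bound to transferrin, rose from 66 to 333 counts, 5.10-fold higher (3.91 to 6.75). Tfrc, the transferrin receptor, had 1 and 17 counts, for a ratio of 17.2 (2.69 to 718). The ratio of Tfrc rests on 1 saline count, so its size is not determined. The other 3 were chosen after their values were seen. They were the iron exporter gene Slc40a1, from 7 to 31 counts, the metalloreductase gene Steap2, from 15 to 47, and Fech, from 21 to 68. Fech encodes the enzyme that adds iron to complete haem. Blvra, biliverdin reductase, was 2.17-fold lower (1.27 to 3.82). Zinc and copper genes had 4 of 16 called higher and 0 lower, with a median of 0.54. At an unadjusted level, 7 of the 16 had intervals wholly above 1 and 0 wholly below, beside 17.2% and 18.1% of all genes tested. Slc39a6, a zinc importer, was 3.74-fold higher (1.82 to 8.44), and Atox1, a copper chaperone, had 187 and 458 counts, 2.48-fold higher (2.08 to 2.95). The other 2, chosen after their values were seen, were the zinc transporter gene Slc30a7, from 19 to 43 counts, and the copper importer gene Slc31a1, from 23 to 48.

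Aldehyde removal and molybdenum cofactor genes had 5 of 11 called lower and 0 higher, with a median log2 ratio of −1.03. That median was −0.09 over 13 genes with no minimum count, −0.72 with 5 added to each count, and −1.99 over the 3 genes with at least 50 counts. Aldh3a1 had 36 and 6 counts, 5.93-fold lower (2.48 to 17.2), and Aldh1a1, which also makes retinoic acid, had 164 and 30 counts, 5.41-fold lower (3.65 to 8.27). Aldh2, the mitochondrial enzyme, with 442 and 110 counts, Aldh7a1, with 24 and 8, and Aldh9a1, with 35 and 14, completed the 5 and were chosen after their values were seen. Airway epithelial markers, which can accompany Aldh3a1 and Aldh1a1, summed to 543 CPM in saline and 166 CPM in bleomycin over 7 genes, and their part in the result was not tested. Most of that sum was 1 gene, Tppp3, with 535 of 595 saline and 153 of 180 bleomycin counts, named after its values were seen. The defining airway gene Scgb1a1 had 46 and 12 counts and Foxj1 had 0 and 3. Glutathione uptake, turnover and export genes had 2 of 9 called lower and 0 higher, with a median of −0.61. Dpep1, a dipeptidase that acts on glutathione products, fell from 1179 to 353 counts, 3.30-fold lower (2.93 to 3.73), and Ggt1, which starts glutathione breakdown outside cells, fell from 18 to 3 counts, 5.93-fold lower (1.73 to 31.4).

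Other Nrf2 pathway genes had 2 of 18 called higher and 2 lower, with a median of −0.06. The reductase gene Akr1b8 was 2.91-fold higher (2.11 to 4.09), and Bach1, a repressor that competes with Nrf2 at its sites, was 2.16-fold higher (1.37 to 3.49). Osgin1 was 3.85-fold lower (1.81 to 9.10) and Maff, a small Maf partner of Nrf2, was 2.93-fold lower (2.36 to 3.67). Other selenoproteins and thiol reductases had 1 of 18 called in each direction, with a median of 0.02, or −0.03 with total counts. Sephs2, which makes the selenium donor for selenocysteine, had 1 and 11 counts, a ratio of 11.1 (1.62 to 479). That ratio also rests on 1 saline count, so its size is not determined. Sesn1, a sestrin, was 3.30-fold lower (1.53 to 7.89). Oxidant-producing enzymes had 1 of 4 tested genes called lower, Maob, monoamine oxidase B, which was 3.96-fold lower (2.48 to 6.55). NADPH supply genes, which feed the glutathione and thioredoxin reductases, had 0 of 6 tested genes called, with 2 intervals wholly above 1 (17.2% of all genes tested) and 1 wholly below (18.1%) at an unadjusted level. Pgls, named after its values were seen, had 93 and 175 counts and passed the exact binomial test (adjusted p = 3.89e-06), but its ratio of 1.90 was under the 2-fold limit. The most abundant of them, Pgd, had 187 and 147 counts, for a ratio of 0.795 (0.636 to 0.992).

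**Figure D4:**
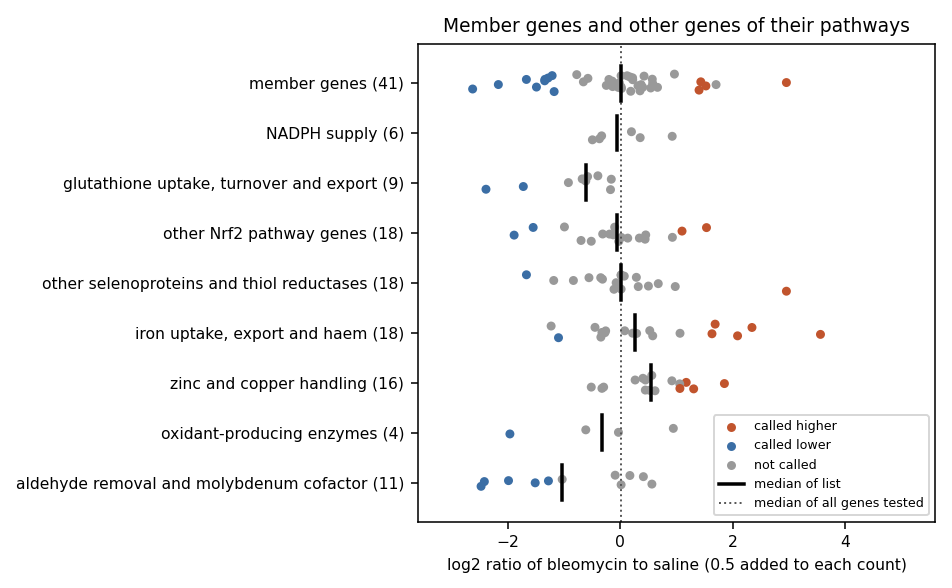
Log2 ratio of bleomycin to saline for each tested gene of the set and of 8 lists of other genes of the same pathways, with 0.5 added to each count. Each point is 1 gene, coloured where it was called, thick bars mark list medians, the dotted line marks the median of all genes tested, and the spread of points within a row has no meaning. The median of aldehyde genes lies to the left at −1.03 and that of zinc and copper genes to the right at 0.54.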

How the data were processed

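Per the labels' protocols, total RNA of sorted cells went into SOLiD SAGE libraries, and BWA 0.6.2 and mm9 appear, without a stated role, in the submitters' processing notes. The deposited table gives 1 whole-number tag count per gene and library, with a RefSeq transcript for each row (the sources used here do not say whether counts were scaled before deposit). Symbols turned into dates were recovered for 21 genes, and 33 rows with a phrase in place of a symbol (0.860% of counts), among them the row described as Idh1, stayed in totals and tests but matched no name. Counts were scaled by the trimmed mean of M values (TMM; edgeR 4.0.16, R 4.3.3), with factors of 1.01 and 0.986. With 1 library per group, edgeR's quasi-likelihood model had no residual degrees of freedom and was not used. Genes with at least 10 counts over both libraries were tested by a two-sided exact binomial test with Benjamini-Hochberg adjustment over 9369 genes. The ratio of at least 2 and log2 ratios used 0.5 added to each count; printed ratios are unshifted, with exact Clopper-Pearson 95% intervals that cover counting error only. A count of 0 (a floor of 3 counts) allows 2.74 CPM after saline and 2.77 CPM after bleomycin. Tag counts do not scale with transcript length. Scripts ran under Python 3.11.15 with scipy 1.17.1, numpy 2.4.6 and pandas 2.3.3, and the test was tried on simulated counts.

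The genes of the set, the 8 pathway lists and the 12 marker lists were chosen with earlier results of these data known, so lists are described by counts and medians and have no p of their own. Named genes are all of the set, up to 2 called genes per direction of each pathway list farthest from a ratio of 1 (or the most abundant where none was called), and fixed identity markers, of which Cd68 matched no row. The RefSeq and GENCODE tables are of GRCm38 and the notes name mm9, so no coordinates were joined to counts. The comparison of protein sequences that had been planned was not run, and 1 tag is not reported here. Alternatives were other scalings (total counts, DESeq2 1.42.0 size factors, upper quartile), count minimums, ratio limits, Bonferroni adjustment, no test, and Fisher's exact test.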

Additional observations from a re-analysis of the deposited data

How the results depend on the processing

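All 13 calls among the 41 genes remained with total counts, DESeq2 size factors, upper quartile factors, no minimum count, and Fisher's exact test, and the scalings moved the median log2 ratio of all genes by −0.0414 to 0.0203. With a minimum of 50 counts, Gss, Cat, Nfe2l2 and Aox3 were no longer tested, because each had fewer than 50 counts over both libraries. The median log2 ratio of the 33 left was 0.12. At that minimum 396 genes were called higher and 484 lower in the table, and 6 pathway genes lower. A ratio of at least 3 left 1 gene of the set higher (Gss) and 3 lower (Cat, Sepp1 and Aox3), with 443 and 445 genes in the table and 7 pathway genes higher. At that limit 9.76% of the set was called beside 9.48% of all genes tested, about the same share. Bonferroni adjustment left 2 higher (Mt2 and Prdx5) and 3 lower (Sod3, Sepp1 and Aox3), with 288 and 333 genes in the table and 4 and 6 pathway genes. A ratio of at least 2 with no test gave 1150 genes higher and 1327 lower, against 757 and 798, and added Gclm. A ratio of at least 1.5 added Gpx4, Txn1 and Glrx. The set's share called, beside that of all genes tested, was 12.2% and 6.63% with Bonferroni adjustment. It was 34.1% and 26.4% with no test, and 39% and 24.2% at a ratio of at least 1.5. With the 10 most abundant genes left out of the totals only, the set's sum, which still held Mt2 and Fth1 of those 10, came to 2.93% (saline) and 3.87% (bleomycin) of the rest; with the 10 left out of sum and total alike, chosen after seeing the data, the set made up 1.79% and 1.73%, so the share was no longer greater in bleomycin. Restricting promoters to the 250 bases before the start left matches to the antioxidant response core in 16.7% of the 36 genes, beside 11.5% of all genes. Matches to the metal response core were left in 25.0%, beside 23.8% of all genes. No call on a gene reversed. No paired analysis was possible because each group is 1 library, and for the same reason no library could be left out. Depth limits genes with few counts: Gss, Nqo1 and Gclm had 12, 12 and 18 counts over both libraries.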
